A study of Mus musculus with 8 samples.

Results

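Open chromatin was examined at the loci of 41 genes of the interferon response and antiviral defence, listed by name, out of 34804 genes on chromosomes 1 to 19 and X. All 41 were among the 27997 genes whose loci held enough peak sequence to be tested, so none was lost to the filter on low values. The list leaves out the oligoadenylate synthetase cluster. It holds 4 receptor genes, 5 sensors of viral or microbial products, 9 transcription factors, 18 antiviral effectors, 3 genes of antigen processing or chemotaxis, the feedback inhibitor Usp18 and the interleukin 1 decoy receptor Il1r2.

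The libraries came from ATAC-seq, which maps accessible DNA by where the Tn5 transposase inserts adapters, on satellite cells, the stem cells of skeletal muscle, from the hindlimbs of C57BL/6 mice. There were 2 libraries in each of 4 groups. LncMyod siRNA cells were cultured for differentiation and given siRNA to LncMyod, transcribed as a noncoding RNA near Myod1, for 48 h. Control siRNA cells were cultured for differentiation with a control siRNA, for which the sources used here record no time. ASC were isolated 2.5 days after an injury and QSC were freshly isolated, both recorded as having no siRNA treatment. The labels do not say how cells were sorted, nor whether the replicates are separate mice or dishes; the tests below therefore weigh differences against a spread between libraries that may be only technical. No group was cultured without an siRNA, so culture, siRNA treatment and differentiation cannot be told apart, and no group received interferon or a virus. LncMyod RNA was not measured, and the knockdown is therefore unchecked here.

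Type I interferons bind the receptor formed by IFNAR1 and IFNAR2, and interferon gamma binds the receptor formed by IFNGR1 and IFNGR2. Type I signalling assembles a complex that includes STAT2 and IRF9 and binds interferon-stimulated response elements in the promoters of antiviral genes, while interferon gamma acts through gamma-activated sites. Cytosolic RNA sensors such as RIG-I (Ddx58) and MDA5 (Ifih1) and endosomal Toll-like receptors start interferon production, and introduced double-stranded RNA, siRNAs included, can trigger such sensors.

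The promoters below are shown because the gene's locus passed a test below (Ifnar2, Irf2, Ifit1, Ifitm7, Rsad2, Gbp2 and Gbp3) or its promoter lacked a peak in most libraries (Ifit3, Ifitm1 and Isg15). Tlr4 also passed and has no sequence in the table used. Each is the 250 bases before the gene's start in RefSeq (GRCm38.p6, whose coordinates are those of mm10), read 5′ to 3′ on the gene's strand, and capitals mark matches to the core of the interferon-stimulated response element. The core was searched as GAAANNGAAA on both strands, so that TTTCNNTTTC is the same core on the other strand, and overlapping matches were joined.
Ifnar2, chr16:91372533-91372782, plus strand: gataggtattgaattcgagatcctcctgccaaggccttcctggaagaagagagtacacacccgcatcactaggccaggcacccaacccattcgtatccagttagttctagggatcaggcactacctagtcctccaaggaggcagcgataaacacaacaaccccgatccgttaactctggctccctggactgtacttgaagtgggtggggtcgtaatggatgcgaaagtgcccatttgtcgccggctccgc
Irf2, chr8:46739495-46739744, plus strand: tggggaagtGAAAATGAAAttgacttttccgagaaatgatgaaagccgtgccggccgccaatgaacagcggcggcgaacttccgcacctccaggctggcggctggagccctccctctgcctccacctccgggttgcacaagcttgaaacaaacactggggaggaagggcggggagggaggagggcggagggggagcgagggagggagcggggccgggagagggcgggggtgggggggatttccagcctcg
Ifit1, chr19:34640639-34640888, plus strand: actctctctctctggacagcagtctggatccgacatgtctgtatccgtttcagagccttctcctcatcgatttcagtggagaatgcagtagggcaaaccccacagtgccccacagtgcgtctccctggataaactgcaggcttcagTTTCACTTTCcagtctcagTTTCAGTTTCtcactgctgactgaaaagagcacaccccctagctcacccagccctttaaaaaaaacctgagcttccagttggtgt
Ifit3, chr19:34583279-34583528, plus strand: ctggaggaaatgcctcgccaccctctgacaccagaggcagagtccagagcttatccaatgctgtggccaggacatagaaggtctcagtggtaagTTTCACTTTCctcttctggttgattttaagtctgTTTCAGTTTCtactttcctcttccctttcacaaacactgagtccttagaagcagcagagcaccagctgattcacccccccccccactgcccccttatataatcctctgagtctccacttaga
Ifitm1, chr7:140967826-140968075, plus strand: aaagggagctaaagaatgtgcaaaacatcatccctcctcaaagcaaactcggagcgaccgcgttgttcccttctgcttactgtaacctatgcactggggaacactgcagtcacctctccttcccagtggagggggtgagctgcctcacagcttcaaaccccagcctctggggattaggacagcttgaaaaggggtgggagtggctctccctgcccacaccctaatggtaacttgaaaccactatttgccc
Ifitm7, chr16:13986868-13987117, minus strand: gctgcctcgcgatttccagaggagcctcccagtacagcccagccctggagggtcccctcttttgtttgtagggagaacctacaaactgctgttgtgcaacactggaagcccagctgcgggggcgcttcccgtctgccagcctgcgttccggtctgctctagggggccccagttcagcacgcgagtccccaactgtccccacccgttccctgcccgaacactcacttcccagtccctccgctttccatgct
Rsad2, chr12:26456453-26456702, minus strand: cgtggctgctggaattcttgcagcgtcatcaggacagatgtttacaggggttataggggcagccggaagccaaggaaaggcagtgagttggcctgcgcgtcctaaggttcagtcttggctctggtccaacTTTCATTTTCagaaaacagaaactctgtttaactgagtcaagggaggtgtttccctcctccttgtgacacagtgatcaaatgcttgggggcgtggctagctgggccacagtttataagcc
Gbp2, chr3:142620413-142620662, plus strand: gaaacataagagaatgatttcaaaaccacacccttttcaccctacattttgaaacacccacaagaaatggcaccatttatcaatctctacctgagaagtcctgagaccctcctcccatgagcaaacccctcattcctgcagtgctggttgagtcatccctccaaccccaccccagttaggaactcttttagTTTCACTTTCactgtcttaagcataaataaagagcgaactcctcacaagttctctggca
Gbp3, chr3:142559794-142560043, plus strand: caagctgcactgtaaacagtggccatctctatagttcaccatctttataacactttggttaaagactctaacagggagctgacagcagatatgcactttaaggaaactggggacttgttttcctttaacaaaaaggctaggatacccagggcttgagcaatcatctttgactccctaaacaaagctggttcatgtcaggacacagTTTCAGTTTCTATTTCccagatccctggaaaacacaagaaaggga
Isg15, chr4:156200819-156201068, minus strand: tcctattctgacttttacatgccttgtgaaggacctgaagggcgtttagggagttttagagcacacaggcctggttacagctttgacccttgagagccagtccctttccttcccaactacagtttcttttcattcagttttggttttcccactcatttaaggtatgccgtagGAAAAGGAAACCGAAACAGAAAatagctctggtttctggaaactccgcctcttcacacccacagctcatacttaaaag
Of these 10 promoters 7 carry the core, and those of Ifnar2, Ifitm1 and Ifitm7 do not. In Ifit1 the cores begin 104 and 85 bases before the start, in Ifit3 156 and 122, and in Isg15 3 overlapping cores begin 78, 72 and 66 bases before it. Irf2 has a core 241 bases before its start, Rsad2 one at 120, Gbp2 one at 59, and Gbp3 a pair at 45 and 39.

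Most member promoters were open in every library, whatever the treatment. RefSeq promoter windows, from 250 bases before to 50 after a start, were at hand for 36 of the 41 genes; Tlr4, Dhx58, Mx1, Mx2 and Usp18 had none. A peak overlapped a window in all 8 libraries for 31 of the 36 genes (86.1%), against 43.0% of all 26794 genes with a window and 57.5% of the 17274 protein-coding ones. The 31 include all 4 receptors, all 9 transcription factors, and Ddx58, Ifih1 and Tlr3. All 5 exceptions were effectors. Isg15, whose product is a ubiquitin-like modifier, had no peak over its window in any library. Ifit3 had one in QSC replicate 1 and Ifitm1 one in ASC replicate 1. The Ifit1 window had a peak in both LncMyod siRNA libraries, control siRNA replicate 2 and both QSC libraries, and in neither ASC library. The Ifitm7 window had a peak in both libraries of the LncMyod siRNA, control siRNA and ASC groups and in neither QSC library.

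**Figure D1:**
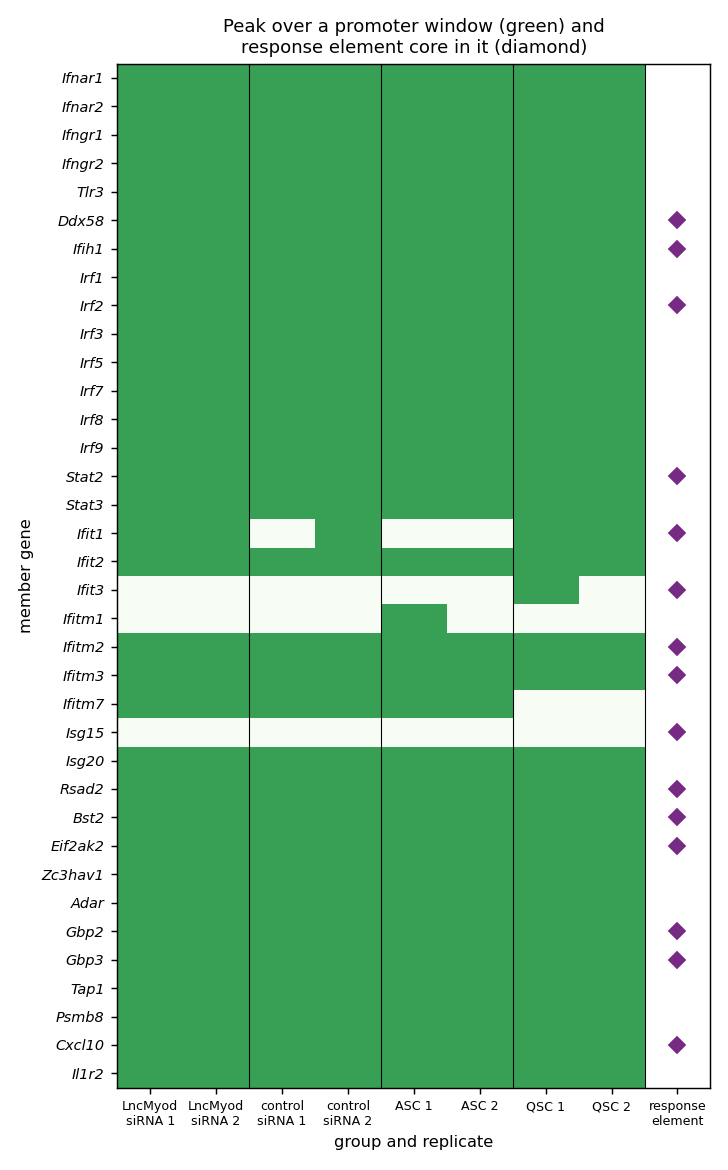
Peaks over the promoter window of each of 36 member genes (rows) in the 8 libraries (columns); green marks a gene with a peak over any of its windows, white a gene without, and a diamond a match to the response element core. The 31 genes with green in all 8 columns contrast with Ifit1, Ifit3, Ifitm1, Ifitm7 and Isg15.

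The response element core stood in the promoter windows of 15 of the 36 genes (41.7%), against 4.02% of all genes and 3.98% of protein-coding genes with a window. It was in 10 of 16 effectors, 2 of 3 sensors, 2 of 9 transcription factors (Irf2 and Stat2), Cxcl10 and none of the 4 receptors. Counting a peak over any window of a gene, 12 of the 15 genes with the core and 19 of the 21 without had one in all 8 libraries. Among protein-coding genes with the core this share was 47.9%. The window with the peak need not be the one with the core. At Gbp3 the window with the cores had a peak in 6 libraries and in neither control siRNA library. The core of the gamma-activated site, TTCNNNGAA, which reads the same on both strands, was in 13 of the 36 genes (36.1%), against 9.61% of all genes. A match in a window is a description of letters, not evidence of binding.

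Below, a locus is a gene and the 10 kb flanking each end of it, and its covered length is the bp under peaks, scaled to the library's total. Read counts are not in the deposited lists, so the depth is unknown and a missing peak does not show closed chromatin. A smaller covered length can come from fewer cells with open chromatin or from less open chromatin per cell, which cannot be told apart. The libraries held between 59666 and 95449 peaks, of which 50.3% to 69.9% had a −log10 q of 5 or more. Another protein-coding gene reached into 29 of the 41 loci. Summed over the 38 separate stretches that the loci form, scaled covered length was 85.0 and 90.1 kb in LncMyod siRNA, 87.1 and 82.7 kb in control siRNA cells, 89.9 and 98.1 kb in ASC, and 95.6 and 95.7 kb in QSC. The siRNA and ASC libraries overlapped in this sum, and both QSC libraries were above all 4 siRNA libraries.

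Loci differed in how much of them was open and in how steady they were. Averaged over the groups, peaks covered 18.04% of the Psmb8 locus, 15.0% at Tap1 and 13.7% at Isg20, against 1.296% at Ifit3 and 1.84% at Ifit1. The ratio of the highest to the lowest library was 1.35 at Isg20, an exonuclease gene, 1.38 at Adar, which encodes an RNA-editing enzyme, and 1.52 at both Isg15 and Zc3hav1, an antiviral zinc finger gene. It was 5.605 at Gbp2, 3.95 at Stat2 and 3.52 at Ifitm2. Ifit1, Ifit3 and Ifitm7 were at 0 in at least 1 library and have no such ratio.

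Changes were tested with limma on log2(scaled bp + 500), a scale on which changes at sparsely covered loci come out too small. "Rose" and "fell" refer to covered length with a Benjamini-Hochberg adjusted p under 0.05 over all tested loci. In ASC against QSC, 4 members passed (9.76%), against 13% of all tested loci: Ifitm7 rose, and Ifit1, Rsad2 and Tlr4 fell. Control siRNA against QSC gave 6 (14.6%), against 17%: Ifitm7 rose, and Rsad2, Tlr4, Ifnar2, Irf2 and Gbp2 fell. Gbp3 alone passed in control siRNA against ASC, which is 2.44% of the members against 4.01% of all tested loci. In LncMyod siRNA against control siRNA no member passed, against 0.025% of all tested loci, and 4 members had an unadjusted p under 0.05, against 2711 of all 27997. The shares called among the members were thus near or under the background in every comparison. The first 2 comparisons share the QSC libraries, and the third shares libraries with each of them, so these counts are not independent.

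Split by direction, 1 member rose in ASC against QSC (7.67% of all tested loci did) and 3 fell (5.31%), while 1 rose in control siRNA against QSC (9.99%) and 5 fell (6.99%). The member that passed in control siRNA against ASC fell (1.73%; 2.29% of all tested loci rose). With quantile normalization the split over all loci in ASC against QSC was 1626 higher and 1725 lower, in place of 2148 and 1488. Without scaling it was 283 and 83 in control siRNA against ASC, in place of 640 and 483, and the median change of all loci moved by 0.12, which is −0.08 with scaling and 0.04 without. The members' median log2 change was 0.10 in ASC against QSC, −0.18 in control siRNA against QSC, −0.16 in control siRNA against ASC and −0.03 in LncMyod siRNA against control siRNA. Over all tested loci these medians were 0.07, 0.00, −0.08 and −0.05 in the same order.

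**Figure D2:**
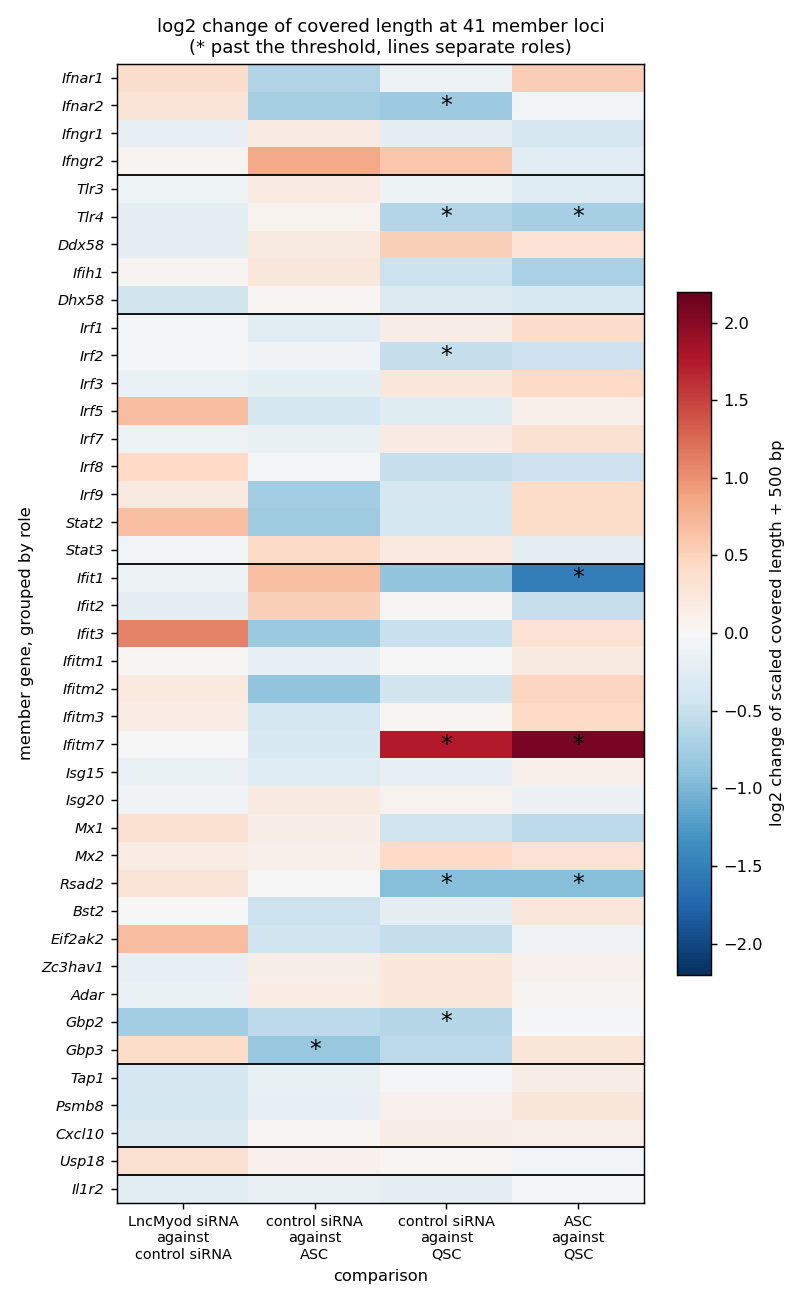
log2 change of scaled covered length (+ 500 bp) at the 41 member loci (rows, grouped by role with lines between roles) in the 4 comparisons (columns); red is more and blue less in the first-named group, and an asterisk marks adjusted p under 0.05. The 11 asterisks fall on 8 genes, and none is in the column of LncMyod siRNA against control siRNA.

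Calls on single genes rested on groups of 2 libraries. Without QSC replicate 1 or without QSC replicate 2, Ifitm7 was the only member still called in ASC against QSC and in control siRNA against QSC. Fewer loci passed over all tested loci, too, in each comparison when any library of its pair was left out. A member call lost in such a fit is therefore not particular to the members. Over all loci, 0 passed in LncMyod siRNA against control siRNA when any 1 of the 8 libraries was left out.

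Ifitm7, a member of the interferon-induced transmembrane family (chr16:13981702-13986867), had the lowest adjusted p of the members. Its locus held 1201 and 1124 scaled bp in LncMyod siRNA, 1174 and 1183 in control siRNA, and 1580 and 1650 in ASC, and was listed at 0 in both QSC libraries. The 6 non-QSC libraries thus lay within 1124 to 1650 scaled bp and did not overlap QSC. The adjusted p was 0.00185 for ASC against QSC and 0.00235 for control siRNA against QSC, and both calls held when any 1 library was left out. No fold is given, since the fitted change depends on the 500 bp added. The length came from a region over the Ifitm7 promoter shown above, within the overlapping gene Bmerb1 (chr16:13986655-13987391), with deposited fold enrichments between 2.71 and 3.30, and from a stronger region 5477 bp away inside Bmerb1 (chr16:13992344-13993266), with 5.20 to 8.23. Both calls were lost over the gene body alone (adjusted p = 0.0635 and 0.260), and whether either region acts on Ifitm7 or on Bmerb1 was not tested.

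The other Ifitm genes, whose products restrict viral entry at membranes, form a cluster on chromosome 7 and did not pass in any comparison. At Ifitm3 the locus held 2322 and 2391 scaled bp in LncMyod siRNA, 2190 and 1910 in control siRNA, 3285 and 2451 in ASC, and 1801 and 2172 in QSC (ASC against QSC, log2 change 0.43, SE 0.16, adjusted p = 0.137). The ASC libraries were above all others at this locus. One Ifitm3 region, over the promoter of the neighbouring gene Ifitm6 (chr7:141016462-141017667), was held by all 6 non-QSC libraries with folds of 3.97 to 7.84 and by neither QSC library, like the Ifitm7 regions. Ifitm2 held 1269 and 996 scaled bp in LncMyod siRNA, 1153 and 675 in control siRNA, 1748 and 2373 in ASC, and 1416 and 1260 in QSC, so that ASC was highest there too (control siRNA against ASC, −0.87, SE 0.22, adjusted p = 0.0770). Ifitm1 ranged between 575 and 1207 scaled bp with overlapping groups.

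The Ifit genes encode tetratricopeptide proteins that bind foreign RNA. Ifit1 held 551 and 214 scaled bp in LncMyod siRNA, 204 and 733 in control siRNA, 200 in ASC replicate 1 and 0 in ASC replicate 2, and 1166 and 1219 in QSC. QSC did not overlap any other group, and Ifit1 fell in ASC against QSC (log2 change −1.52, SE 0.33, adjusted p = 0.0284). The change was −0.86 in control siRNA against QSC (SE 0.33, adjusted p = 0.122). The region over the Ifit1 promoter (chr19:34640110-34641301) had folds of 2.899 and 2.750 in LncMyod siRNA, 3.07 in control siRNA replicate 2, and 4.70 and 4.20 in QSC. It also overlaps Ifit1bl1 and Ifit1bl2, copies of the Ifit family, so its signal cannot be assigned to Ifit1 alone. The Ifit1 call was lost without scaling (adjusted p = 0.0707), and without QSC replicate 1, QSC replicate 2 or ASC replicate 2 (adjusted p = 0.121, 0.137 and 0.123).

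Ifit2 held 2450 and 2926 scaled bp in LncMyod siRNA, 3305 and 3020 in control siRNA, 2096 and 1986 in ASC, and 2901 and 3331 in QSC. ASC was below all other libraries, and the change just missed the threshold (ASC against QSC, −0.51, SE 0.13, adjusted p = 0.0508). It passed with quantile normalization, with 100 bp added in place of 500, and without either LncMyod siRNA replicate. Ifit3 held 591 and 552 scaled bp in LncMyod siRNA, 0 in both control siRNA libraries, 0 and 1040 in ASC, and 497 and 0 in QSC. Peaks were thus present at Ifit3 in 4 of 8 libraries, and none of its comparisons passed. In LncMyod siRNA against control siRNA its adjusted p was 0.587. A region 7981 bp from Ifit3, inside Ifit1bl1 (chr19:34596963-34597704), was held by both LncMyod siRNA libraries and neither control siRNA library, and also by ASC replicate 2.

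Rsad2 encodes viperin, a radical SAM enzyme that makes an antiviral nucleotide. Its locus (chr12:26442743-26456452 with 10 kb on both sides) held 1804 and 1559 scaled bp in LncMyod siRNA, 1316 and 1243 in control siRNA, 1165 and 1418 in ASC, and 3083 and 2752 in QSC. Means over 2 libraries (± SD, n = 2) were 1.68 ± 0.173 kb for the LncMyod siRNA group, 1.28 ± 0.0517 kb for control siRNA cells, 1.29 ± 0.179 kb for ASC, and 2.92 ± 0.235 kb for QSC. QSC was above every other library, and Rsad2 fell in ASC against QSC (−0.93, SE 0.15, adjusted p = 0.0107) and in control siRNA against QSC (−0.94, SE 0.15, adjusted p = 0.00860). The promoter shown above was not where the groups differed. The region over it (chr12:26454659-26456756) was held by all 8 libraries, with 2030 and 1085 unscaled bp in LncMyod siRNA, 1087 and 1023 in control siRNA, 1165 and 1174 in ASC, and 1078 and 1109 in QSC.

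The QSC length at Rsad2 came from 3 further regions. One inside the gene (chr12:26444114-26444383) was held by QSC alone, with folds of 3.11 and 3.89. One 2573 bp away (chr12:26439364-26440170) had folds of 5.79 and 4.68 in QSC and was otherwise held only by LncMyod siRNA replicate 2, with 2.95. One 3657 bp away (chr12:26460109-26461004) was held by all libraries except those of ASC. Over the gene body alone the calls were lost (adjusted p = 0.797 in ASC against QSC and 0.305 in control siRNA against QSC). Leaving out a library of the pair raised the adjusted p to 0.0714 and 0.0613 in ASC against QSC without QSC replicate 1 and 2, and to 0.0616, 0.0505, 0.0531 and 0.0614 in control siRNA against QSC without QSC replicate 1, QSC replicate 2, control siRNA replicate 1 and control siRNA replicate 2.

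Gbp2 and Gbp3 encode guanylate-binding proteins, GTPases induced by interferon gamma, and neighbour each other on chromosome 3. The Gbp2 locus held 363 and 531 scaled bp in LncMyod siRNA, 1083 and 1120 in control siRNA, 1938 and 1818 in ASC, and 1889 and 2037 in QSC. The siRNA groups lay below all ASC and QSC libraries, and LncMyod siRNA lay below control siRNA with no overlap. Gbp2 fell in control siRNA against QSC (−0.62, SE 0.15, adjusted p = 0.0350). The change was −0.57 in control siRNA against ASC (adjusted p = 0.0860), and in LncMyod siRNA against control siRNA it was −0.76 (SE 0.15, unadjusted p = 0.0015, adjusted p = 0.179). The region over the Gbp2 promoter (chr3:142619537-142621426) was open in every library and differed in width, with 454 and 515 unscaled bp in LncMyod siRNA, 874 and 1144 in control siRNA, 1454 and 1269 in ASC, and 1362 and 1311 in QSC. A further region (chr3:142640063-142640646) had 0 and 0 unscaled bp in LncMyod siRNA, 234 and 0 in control siRNA, 485 and 236 in ASC, and 507 and 561 in QSC. Over the gene body alone the Gbp2 change in control siRNA against QSC turned to 0.56 (adjusted p = 0.0230). Its call was also lost without scaling (adjusted p = 0.0609), with quantile normalization (0.0859), with 100 bp added (0.0525), and without QSC replicate 1, QSC replicate 2, control siRNA replicate 1 or control siRNA replicate 2 (0.125, 0.178, 0.155 and 0.141).

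Gbp3 held 1043 and 1315 scaled bp in LncMyod siRNA, 622 and 920 in control siRNA, 1849 and 1677 in ASC, and 1307 and 1438 in QSC. Control siRNA was lowest and ASC highest, and Gbp3 fell in control siRNA against ASC (−0.84, SE 0.18, adjusted p = 0.04998, just under the threshold). The region over its promoter (chr3:142559705-142561026) had 1303 and 1276 unscaled bp in LncMyod siRNA, 636 and 661 in control siRNA, 1238 and 985 in ASC, and 1293 and 1322 in QSC. A peak overlapped the promoter window with this pair of cores in all libraries except both of control siRNA. There the narrower peak reached only the window of the second start of the gene. Overlap by 1 bp or more was enough, so whether peaks covered the cores themselves was not tested. The call was lost in 7 of 10 alternative settings and without any 1 of 6 libraries. The adjusted p was 0.0927 without QSC replicate 1, 0.0932 without QSC replicate 2, 0.110 without ASC replicate 1, 0.123 without ASC replicate 2, 0.232 without control siRNA replicate 1 and 0.143 without control siRNA replicate 2.

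**Figure D3:**
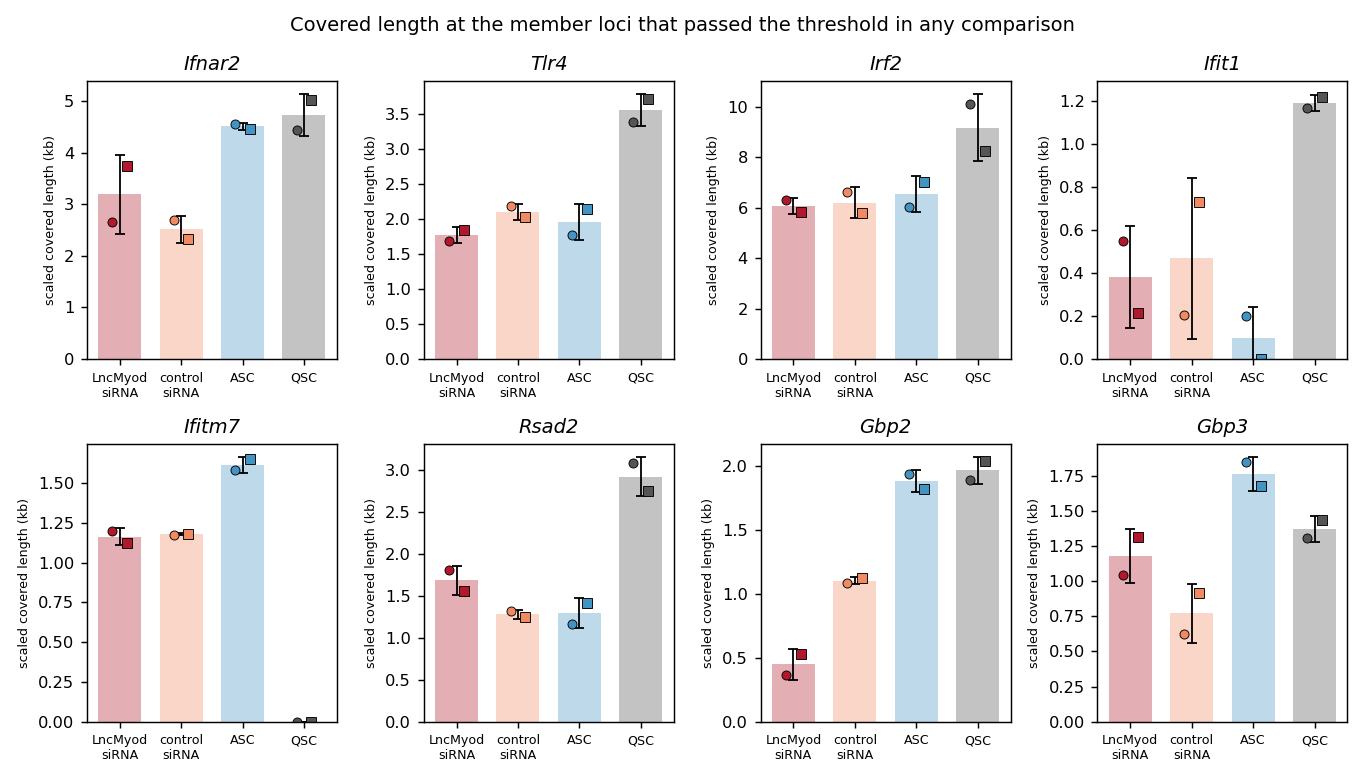
Scaled covered length (kb) at the 8 member loci that passed the threshold in any comparison; bars are means of 2 libraries, whiskers are 1 SD, circles are replicate 1 and squares replicate 2. Ifitm7 is at 0 in both QSC libraries, QSC lies above all other libraries at Tlr4, Irf2, Ifit1 and Rsad2, and Gbp2 is lowest in LncMyod siRNA (0.447 ± 0.118 kb).

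The other effectors did not pass in any comparison. Eif2ak2, the double-stranded RNA-activated kinase PKR, held 1460 and 1306 scaled bp in LncMyod siRNA, 690 and 655 in control siRNA, 1060 and 1134 in ASC, and 1545 and 901 in QSC. Both LncMyod siRNA libraries were above both control siRNA libraries (0.68, SE 0.20, adjusted p = 0.349). Isg15, without a peak over its promoter, held 1960 to 2975 scaled bp in its locus, from 2 regions present in all 8 libraries at the neighbouring genes Agrn and Perm1. Mx1 and Mx2, GTPases that trap viral particles and that RefSeq lists as transcribed pseudogenes in this reference strain, held 1128 to 2368 and 1298 to 2573 scaled bp. Over the gene body alone Mx1 rose in ASC against QSC (1.51, adjusted p = 0.0200), whereas with 10 kb on both sides its change was −0.58 (SE 0.25, adjusted p = 0.182). Bst2, which encodes tetherin, held 1419 to 2965 scaled bp, and its groups overlapped.

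Among the receptor genes, Ifnar2 (chr16:91372783-91405589) fell in control siRNA against QSC. Its locus held 2653 and 3735 scaled bp in LncMyod siRNA, 2705 and 2336 in control siRNA, 4565 and 4458 in ASC, and 4452 and 5018 in QSC. The 4 siRNA libraries were below all 4 ASC and QSC libraries. The log2 change was −0.79 (SE 0.16, adjusted p = 0.0197) in control siRNA against QSC, −0.73 (adjusted p = 0.0562) in control siRNA against ASC and −0.06 (adjusted p = 0.879) in ASC against QSC. The call held in all 10 alternative settings, and it was lost without QSC replicate 1, QSC replicate 2, control siRNA replicate 1 or control siRNA replicate 2 (adjusted p = 0.0731, 0.117, 0.0711 and 0.113).

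The regions at Ifnar2 differed in which groups held them. The promoter region (chr16:91372400-91373520) was held by all 8 libraries. A pair of regions inside the gene was held by ASC alone (chr16:91388454-91388841, folds 4.22 and 2.62; chr16:91392927-91393474, folds 2.70 and 3.19). A region 8952 bp from the gene (chr16:91362479-91363831) was held by both ASC and both QSC libraries and by LncMyod siRNA replicate 2, with a fold of 2.91 there. Another, 5525 bp away (chr16:91366620-91367258), was held by all 4 siRNA libraries and by none of the others, with folds of 2.85 to 4.40.

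Ifnar1, the other chain of the type I receptor, lies on the same chromosome and held 2999 and 2890 scaled bp in LncMyod siRNA, 1970 and 2303 in control siRNA, 3213 and 4124 in ASC, and 2335 and 2366 in QSC. ASC was above all other libraries, and neither comparison with ASC passed (ASC against QSC 0.54, SE 0.14, adjusted p = 0.0531; control siRNA against ASC −0.66, SE 0.14, adjusted p = 0.0554). Without ASC replicate 1 the first passed. A pair of Ifnar1 regions, one 8835 bp away (chr16:91475656-91476197, folds 3.82 to 6.79) and one inside the gene (chr16:91501014-91501396, folds 2.72 to 4.10), was held by all 6 non-QSC libraries and neither QSC library. The interferon gamma receptor genes did not pass. Ifngr1 held 1024 to 2017 scaled bp. Ifngr2 held 2043 and 2627 in LncMyod siRNA, 3202 and 1495 in control siRNA, 1015 and 1023 in ASC, and 1223 and 1351 in QSC, with all 4 siRNA libraries above the other 4.

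Among the sensors, Tlr4, the receptor for bacterial lipopolysaccharide (chr4:66827551-66846581), fell in both comparisons with QSC. It held 1687 and 1847 scaled bp in LncMyod siRNA, 2180 and 2021 in control siRNA, 1771 and 2141 in ASC, and 3388 and 3713 in QSC. QSC was above every other library (ASC against QSC −0.72, SE 0.13, adjusted p = 0.0173; control siRNA against QSC −0.64, SE 0.13, adjusted p = 0.0214). The region at the gene's start (chr4:66827374-66829284) was nearly the same width in all libraries, between 1772 and 1911 unscaled bp. The difference came from a region 5536 bp away held by QSC alone (chr4:66852117-66852858, folds 2.68 and 2.63) and one 5311 bp away (chr4:66821236-66822240) that was held by LncMyod siRNA replicate 1, both control siRNA and both QSC libraries. Over the gene body alone and with peaks of −log10 q of at least 5, the ASC against QSC change turned to 0.0027 and 0.0528 (adjusted p = 1 and 0.951), and the control siRNA against QSC call was lost (adjusted p = 0.779 and 0.808). The ASC against QSC call was lost without QSC replicate 1, QSC replicate 2 or ASC replicate 1 (adjusted p = 0.0754, 0.118 and 0.0538), and the other without QSC replicate 1, QSC replicate 2, control siRNA replicate 1 or control siRNA replicate 2 (0.0851, 0.134, 0.0898 and 0.120).

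The sensors of double-stranded RNA did not pass in any comparison. Ddx58 held 2844 and 1207 scaled bp in LncMyod siRNA, 2231 and 2279 in control siRNA, 1689 and 2149 in ASC, and 1526 and 1323 in QSC. Control siRNA was above ASC and QSC, while the LncMyod siRNA libraries lay on either side of all others (control siRNA against QSC 0.52, SE 0.30, adjusted p = 0.282). This change passed, as a rise, in the fit on the 4 libraries of the pair. With the 50000 strongest peaks of each library it turned to −1.51 (adjusted p = 0.0144). The Ddx58 change in control siRNA against ASC then turned to −1.62 (adjusted p = 0.0177). Ifih1 held 2401 and 2833 in LncMyod siRNA, 2349 and 2610 in control siRNA, 2549 and 1545 in ASC, and 2971 and 4368 in QSC (ASC against QSC −0.72, SE 0.24, adjusted p = 0.0942). Tlr3, the endosomal receptor for double-stranded RNA, held between 589 and 1014 scaled bp in all libraries, and a region 4872 bp from it (chr8:45415947-45416271) was held by the 4 siRNA libraries alone, with folds of 2.53 to 4.09. Dhx58, which encodes the RIG-I-like protein LGP2, held 2694 and 1652 in LncMyod siRNA, 2794 and 3185 in control siRNA, 3072 and 2727 in ASC, and 3227 and 4448 in QSC. A region over one end of Dhx58 (chr11:100704176-100704549, folds 2.60 and 2.54) was held by QSC alone.

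Of the 9 transcription factor genes, Irf2 fell in control siRNA against QSC. Its product competes with IRF1 for the same elements, and its locus is the longest of the members at 128 kb. It held 6306 and 5838 scaled bp in LncMyod siRNA, 6632 and 5780 in control siRNA, 6041 and 7043 in ASC, and 10120 and 8252 in QSC. QSC was above all other libraries (control siRNA against QSC −0.53, SE 0.14, adjusted p = 0.0425; ASC against QSC −0.46, SE 0.14, adjusted p = 0.0748). A pair of Irf2 regions inside the gene was held by QSC alone (chr8:46753108-46753425, folds 3.47 and 3.47; chr8:46791370-46791930, folds 2.76 and 2.41). The call was lost in 6 of 10 alternative settings (adjusted p up to 0.215, without scaling). It was lost without QSC replicate 1 or 2 (adjusted p = 0.215 and 0.0752), control siRNA replicate 1 or 2 (0.101 and 0.206) and LncMyod siRNA replicate 1 or 2 (0.0579 and 0.0581).

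Irf9 and Stat2, which encode subunits of the complex that binds response elements, both had their lowest group mean in control siRNA. Irf9 held 984 and 503 scaled bp in LncMyod siRNA, 612 and 514 in control siRNA, 1169 and 1463 in ASC, and 854 and 898 in QSC (control siRNA against ASC −0.77, SE 0.22, adjusted p = 0.101). Stat2 held 2340 and 1977 in LncMyod siRNA, 1216 and 1122 in control siRNA, 1186 and 4431 in ASC, and 2122 and 1332 in QSC. One ASC replicate of Stat2 was close to the lowest library and the other was the highest of all, and without ASC replicate 1 the gene passed in both comparisons with ASC. Irf7, the main amplifier of type I interferon production, held 1290 and 1989 in LncMyod siRNA, 1723 and 1839 in control siRNA, 1539 and 2698 in ASC, and 1451 and 1596 in QSC, with overlapping groups except that control siRNA was above QSC (0.17, SE 0.25, adjusted p = 0.681). With the 50000 strongest peaks that change turned to −1.91 (adjusted p = 0.000266). Irf1, Irf3, Irf5, Irf8 and Stat3 had adjusted p of 0.116 or more in each comparison; at Irf5, LncMyod siRNA replicate 2 stood apart with 5483 scaled bp against 2056 to 3145 in the other libraries.

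Tap1, a peptide transporter gene, and Psmb8, an immunoproteasome subunit gene, share their regions. Psmb8 held 3143 and 3357 scaled bp in LncMyod siRNA, 4931 and 3882 in control siRNA, 4169 and 5969 in ASC, and 3972 and 4154 in QSC, so that LncMyod siRNA was below the rest (LncMyod siRNA against control siRNA −0.38, SE 0.18, adjusted p = 0.579). Cxcl10, an interferon-induced chemokine gene, held 922 to 2066 scaled bp, both extremes in ASC. Usp18, whose product restrains IFNAR2 signalling, held 1660 and 4356 in LncMyod siRNA against 1821 to 2274 in the other groups. Il1r2 held 1117 and 1248 in LncMyod siRNA, 1380 and 1567 in control siRNA, 1567 and 1853 in ASC, and 1906 and 1625 in QSC, and did not pass in any comparison. A region inside Il1r2 (chr1:40115314-40115620) was held by both control siRNA and both QSC libraries and by none of LncMyod siRNA or ASC, with folds of 4.86 and 4.88 in control siRNA and 3.60 and 3.91 in QSC.

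Peaks of all libraries were merged into 141310 regions, of which 191 lay at member loci. Overlap of a peak by 1 bp or more counted as holding the region. All 8 libraries held 68 of the 191 (35.6%), against 25% of all regions. QSC alone held 7 (3.66%, against 5.18%), at Il1r2, Tlr4, Irf2, Irf8, Dhx58 and Rsad2. ASC alone held 3 (1.57%, against 0.856%), at Ifnar2 and Irf1. The 4 siRNA libraries alone held 7 (3.66%, against 4.78%), at Ifnar2, Tlr3, Irf8, Stat3, Zc3hav1, Isg20 and Usp18. All 6 ASC and siRNA libraries but no QSC library held 7 (3.66%, against 3.22%), at Ifitm7, Ifnar1, Ifitm3, Irf3 and Il1r2. LncMyod siRNA alone held 2 (1.05%, against 1.26%) and control siRNA alone 2 (1.05%, against 0.832%). The QSC and ASC libraries but no siRNA library held 1 (0.524%, against 0.551%), inside Zc3hav1 (chr6:38315952-38316438), with folds of 7.99 and 7.34 in ASC and 3.10 and 2.55 in QSC. A single library held 44 (23.0%, against 26%).

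Regions are called specific to a group of a pair if held by both its libraries and by neither library of its partner. Such counts carry no p, because the 3 splits of 2 against 2 libraries limit an exact test to p = 0.333. At member loci 14 regions (7.33%) were specific to ASC and 16 (8.38%) to QSC, against 5.99% and 8.54% of all regions. Of control siRNA and QSC, 26 (13.6%) were specific to control siRNA and 12 (6.28%) to QSC, against 15.5% and 8.09%. Of control siRNA and ASC, 17 (8.90%) were specific to control siRNA and 6 (3.14%) to ASC, against 11.7% and 2.64%; 3 of the 6 lay at Ifnar2. In LncMyod siRNA against control siRNA, 5 (2.62%) were specific to LncMyod siRNA, at Ddx58, Irf8, Stat3 and Ifit3, and 3 (1.57%) to control siRNA, at Irf7, Isg15 and Il1r2, against 2.2% and 1.42%. Each of these shares was near that of all regions.

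Few of the specific regions lay over a member's promoter window. Of the 36 regions over a member's promoter window, 32 were held by all 8 libraries and 2 were specific in any comparison, those of Ifit1 and Ifitm7. Tlr4, Dhx58, Mx1, Mx2 and Usp18 had no window, so any region over their starts was counted in the other classes below. The specific regions at the Ifitm3 and Irf9 loci lay over the promoters of the neighbouring genes Ifitm6 and Rec8. Of the 74 regions elsewhere in the body of a protein-coding member, 15 were held by all and 22 were specific. Of the 45 outside protein-coding gene bodies, 9 were held by all and 20 were specific. These 45 include the regions inside Mx1 and Mx2, which are listed as pseudogenes. The remaining 36 lay in bodies of other genes only, with 12 held by all and 11 specific. Regions over promoter windows were also wider, with a median of 1202.5 bp against 452.5 bp elsewhere in the bodies of protein-coding members.

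**Figure D4:**
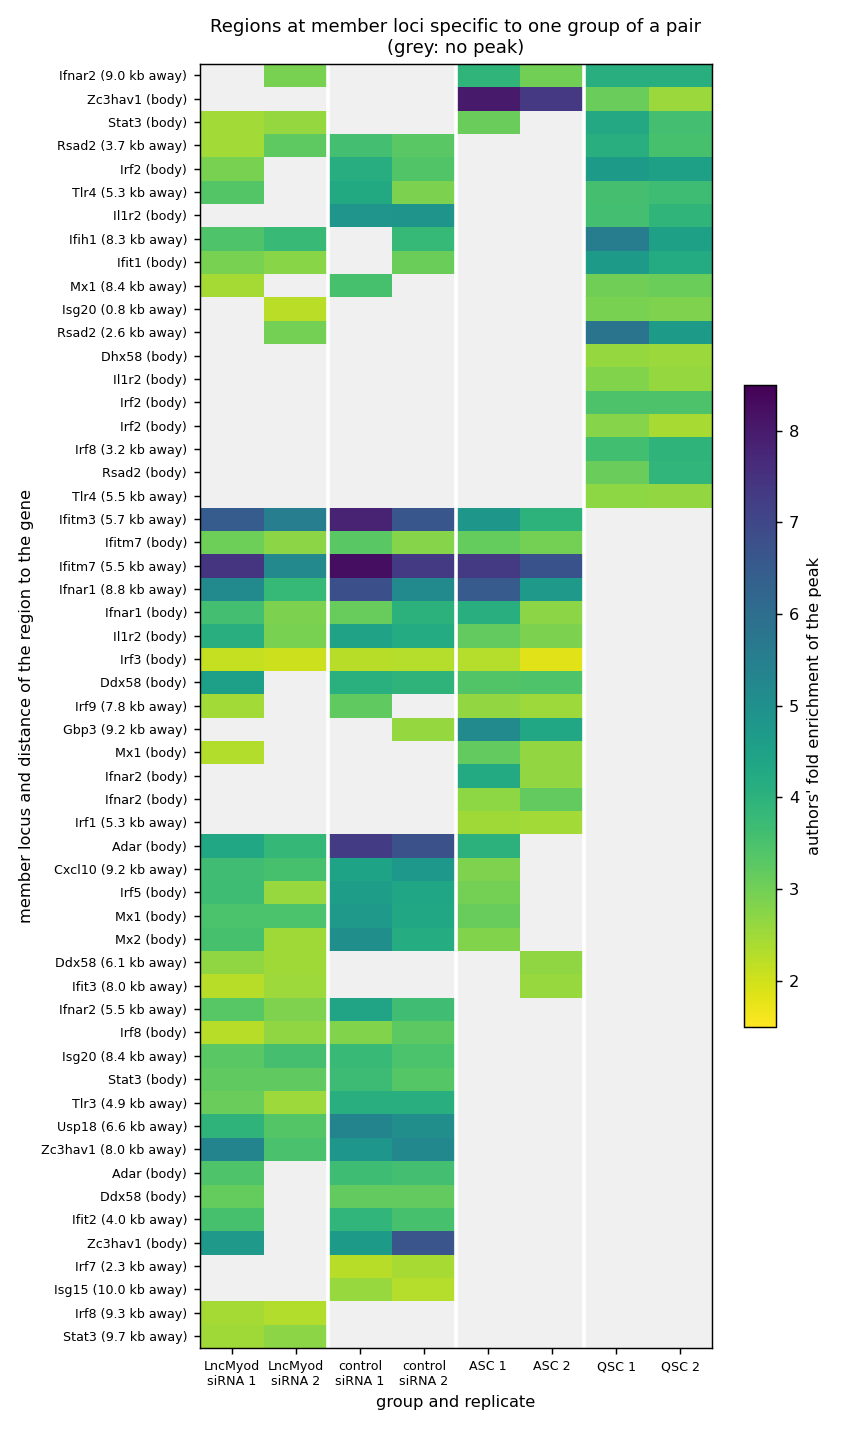
The 55 regions at member loci that were specific to one group in any of the 4 comparisons (rows, named by locus and distance to the gene) in the 8 libraries (columns); colour is the deposited fold enrichment of the peak, which compares a peak with its own library's background, and grey is no peak. Among the rows, 7 are held by QSC alone, 3 by ASC alone, 2 by LncMyod siRNA alone and 2 by control siRNA alone. A further 7 are held by all 4 siRNA libraries alone, and 7 by all ASC and siRNA libraries but not QSC. The remaining rows are mixed.

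Of 68 further genes of the pathway, 66 could be tested, all but Iigp1 and Trim30a. In ASC against QSC 3 rose and 4 fell (10.6%, against 13% of all tested loci), in control siRNA against QSC 3 rose and 8 fell (16.7%, against 17%), in control siRNA against ASC 2 fell (3.03%, against 4.01%), and in LncMyod siRNA against control siRNA none passed (6 had an unadjusted p under 0.05). The median log2 changes were 0.03, −0.03, −0.11 and −0.10. Gbp4, another guanylate-binding protein gene, held 1223 and 1476 scaled bp in LncMyod siRNA, 1558 and 1630 in control siRNA and 2495 and 1591 in ASC, and was listed at 0 in both QSC libraries. It rose in ASC against QSC (adjusted p = 0.00262) and in control siRNA against QSC (adjusted p = 0.00306), as Ifitm7 did. The reverse was seen at Tlr7, the receptor for single-stranded RNA, which held 766 and 824 scaled bp in QSC and was listed at 0 in the other 6 libraries (adjusted p = 0.00549 and 0.00470 in the same comparisons).

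Ifit3b, a close copy of Ifit3, held 140 and 88 scaled bp in LncMyod siRNA, was listed at 0 in all control siRNA and ASC libraries, and held 764 and 1521 in QSC, and fell in both comparisons with QSC (adjusted p = 0.00894 for ASC and 0.00737 for control siRNA). Ifit1bl1 held 1621 and 1260 in LncMyod siRNA, 793 and 1312 in control siRNA, 809 and 1732 in ASC, and 3332 and 3398 in QSC, and fell in ASC against QSC (−1.18, SE 0.28, adjusted p = 0.0388). QSC was thus highest at Ifit1, Ifit3b and Ifit1bl1, which lie close together, and Ifit1 and Ifit1bl1 share a region. Cmpk2, a nucleotide kinase gene, held 2048 and 1827 in LncMyod siRNA, 2516 and 1938 in control siRNA, 2632 and 2385 in ASC, and 4580 and 3784 in QSC, and fell in control siRNA against QSC (−0.78, SE 0.16, adjusted p = 0.0184).

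Tyk2, the kinase bound to IFNAR1, held 3109 and 1744 scaled bp in LncMyod siRNA, 3276 and 3393 in control siRNA, 3729 and 2902 in ASC, and 1150 and 1165 in QSC. It rose in ASC against QSC (1.19, SE 0.23, adjusted p = 0.0194) and in control siRNA against QSC (1.21, SE 0.23, adjusted p = 0.0155). Pml, a nuclear body gene, held 2887 and 3758 in ASC and 1560 and 1682 in QSC and rose (0.84, SE 0.14, adjusted p = 0.0139). Cgas, the cytosolic DNA sensor gene, held 1694 and 1759 in control siRNA and 3388 and 3920 in ASC and fell (−0.90, SE 0.13, adjusted p = 0.0236).

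Leukocytes also express many interferon-induced genes, and their markers moved with the groups. Summed over 22 leukocyte marker loci, scaled covered length was 26.9 and 34.3 kb in LncMyod siRNA, 33.0 and 32.7 kb in control siRNA cells, 25.8 and 24.9 kb in ASC, and 17.4 and 18.2 kb in QSC. Of the 19 tested, 5 rose in ASC against QSC (26.3%, against 7.67% of all tested loci), 9 in control siRNA against QSC (47.4%, against 9.99%) and 3 in control siRNA against ASC (15.8%, against 2.29%), and none fell. C1qb and C1qc had identical fits in each comparison, with a log2 change of 1.59 (SE 0.19) in control siRNA against QSC and against ASC. Their calls are not independent, and both genes are among the 9 and among the 3 that rose. The shares of markers called in these comparisons can therefore be too high. Markers listed at 0 in both libraries of a group numbered 3 in LncMyod siRNA, 4 in control siRNA, 6 in ASC and 10 in QSC. Ly6g and Ms4a1 were at 0 in all 4 groups, Ptprc in LncMyod siRNA and QSC, and Itgam in QSC. Among the genes named above, those that rose in both comparisons with QSC include Ifitm7, Gbp4 and Tyk2, and those that fell in both include Rsad2, Tlr4, Tlr7 and Ifit3b. The part of leukocytes in these results was not tested. Satellite cell markers, 10 loci with peaks in every group, summed to 34.0 and 41.2 kb in LncMyod siRNA, 41.9 and 41.2 kb in control siRNA cells, 46.9 and 46.0 kb in ASC, and 45.2 and 46.4 kb in QSC. The sums were 22.3 and 25.3 kb, 22.8 and 21.3 kb, 22.7 and 23.9 kb, and 21.0 and 23.8 kb in the same order for 8 endothelial markers. For 6 fibroadipogenic markers they were 7.46 and 10.2 kb, 9.33 and 8.33 kb, 12.7 and 10.6 kb, and 18.8 and 12.3 kb.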

How the data were processed

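ATAC-seq libraries of satellite cells, 2 in each of 4 groups, were compared from 1 broad peak list per library. Reads were processed on mm10 with, per the submitters' processing notes, MACS2 2.1.1, bedtools 2.26.0, Bowtie2 2.3.2, SAMtools 1.3, Picard 2.9.2, Trimmomatic 0.36 and bcl2fastq 2.19. No source used here gives their settings or says if cut positions were offset for Tn5. Peaks were called on each library by itself, as the deposited lists show. The authors' lists give each peak's coordinates, a display score, its fold enrichment against background within the library, and deposited −log10 p and −log10 q values; −log10 q served to rank or filter peaks and the fold to describe them. Each library's peak numbering lacked 51 to 62 numbers, so some peaks had been filtered out, by a rule that no source used here states. With no read counts the depth is unknown, and 2 libraries per group limit the precision.

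Gene positions came from RefSeq (GRCm38.p6). Protein-coding, long noncoding and transcribed pseudogene loci were tested where 2 or more libraries had 200 or more covered bp, the last class because it holds Mx1 and Mx2. Covered length was scaled to each library's total. limma 3.58.1 (R 4.3.3) fitted the 4 group means to all 8 libraries with a trended prior, on log2(scaled bp + 500). Loci can share peaks and are not independent. Regions were merged with numpy 2.4.6 under Python 3.11.15. Alternatives were no scaling, quantile normalization, 100 or 2000 bp added, no filter, gene bodies alone, −log10 q of at least 5, the 50000 strongest peaks, a fit on the 4 libraries of a pair, the replicate number as a block, peaks covering at least 50% of a region, and each library left out. The members, gene lists and tests were chosen with earlier results of these data known. All members are named; of the other pathway genes, up to 6 per comparison past the threshold, in order of p, of which 1 is not reported here.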

Additional observations from a re-analysis of the deposited data

How the results depend on the processing

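Of the changes of member loci under all alternatives, 2820 kept their side of the threshold, 59 lost it, 36 gained it and 7 turned in direction. A turn was counted only where the locus passed in the main fit or in the alternative. The 2820 thus include changes of direction at loci called in neither. An example is Usp18 in LncMyod siRNA against control siRNA without LncMyod siRNA replicate 2. Those that turned were, over the gene body alone, Tlr4 (0.0027) and Mx1 (1.51) in ASC against QSC and Gbp2 (0.564) in control siRNA against QSC; with −log10 q of at least 5, Tlr4 in ASC against QSC (0.0528); and with the 50000 strongest peaks, Ddx58 (−1.51) and Irf7 (−1.91) in control siRNA against QSC and Ddx58 in control siRNA against ASC (−1.62). Members called in ASC against QSC numbered 1 over gene bodies (2871 of 23325 tested loci). In control siRNA against QSC they numbered 2 over gene bodies (3574 of 23325 tested loci) and 12 of 40 with equal lists (6837 of 26122 tested loci). In control siRNA against ASC they numbered 0 without scaling, with 100 bp added, with no filter, in the fit on 4 libraries and with the block, 2 with the stricter threshold and 10 of 40 with equal lists. All loci called in ASC against QSC numbered 1841 without scaling. In control siRNA against ASC they numbered 366 without scaling, 2085 with the stricter threshold, 3978 of 26122 with equal lists, 0 in the fit on 4 libraries and 551 with the replicate block. In LncMyod siRNA against control siRNA they numbered 34 without scaling, 52 over gene bodies, 14 with the stricter threshold, 53 with equal lists, and 0 in the fit on 4 libraries and with the replicate block. Regions at member loci specific in LncMyod siRNA against control siRNA numbered 5 with the stricter threshold and 3 with equal lists. The cause of these moves was not tested.

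With 1 library left out, loci called ranged between 734 and 3896 in ASC against QSC, 1041 and 5294 in control siRNA against QSC, 1 and 1543 in control siRNA against ASC, and stayed at 0 in LncMyod siRNA against control siRNA. Members called ranged between 1 and 6, 1 and 6, 0 and 3, and 0 and 0 in the same order. Specific regions ranged between 39 and 48, 45 and 49, 28 and 45, and 12 and 25, since a group of 1 library meets the definition more easily. A lone library in an arm is assumed to vary like the other groups. Same-numbered libraries showed little shared deviation (r between 0.00576 and 0.0975 over 6 pairs). A low r cannot tell whether same-numbered libraries share an origin, which the labels do not state. With the replicate block 3217 loci and 4 members were called in ASC against QSC and 4395 and 5 in control siRNA against QSC. Promoter peaks in all 8 libraries were found for 27 genes with the stricter threshold and 28 with equal lists. Without read counts, a peak missing in a shallow library and a closed site cannot be told apart.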
